A study of Mus musculus with 10 samples.

Results

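The regions described here are the stretches of the mouse genome where chromatin immunoprecipitation with an antibody against RAD23B gave the most reads over control IgG in wild-type embryonic stem cells. A region belonged to this set if it stood in the region list of RAD23B replicate 1, overlapped a region of the replicate 2 list by at least 1 base, and held at least 4 times as many RAD23B as IgG reads in replicate 1 after 1 read was added to each. Of 59768 regions in the replicate 1 list, 38822 overlapped a region of replicate 2, and 2331 of these shared regions passed the ratio of 4. Members were thus chosen by the measured replicate 1 ratio, which is described below without a test. The other 36491 shared regions serve as the comparison. A further 471 regions reached the ratio in replicate 1 without a partner in the replicate 2 list and are not members.

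The chromatin came from wild-type D3 cells, a mouse embryonic stem cell line, with 2 RAD23B libraries (antibody raised in guinea pigs against a RAD23B peptide and affinity purified) and 2 normal guinea pig IgG libraries. RAD23B and IgG from Xpc-/- embryonic stem cells have 1 library each. Expression was measured by poly-A RNA sequencing in another embryonic stem cell line, JM8.N4, with 1 library each of wild-type cells, Rad23b-/- cells, and Rad23b-/- cells in which Xpc was knocked down with 1 of 2 independent short hairpin RNAs (Rad23b-/-Xpc KD1 and Rad23b-/-Xpc KD2). Every mutant RNA library therefore lacks intact Rad23b, and no library has the Xpc knockdown alone. Material equal to 4 immunoprecipitations was pooled for each ChIP library, and the labels do not say whether the replicates came from separate cultures.

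RAD23B forms a complex with XPC and CETN2. The complex is best known from nucleotide excision repair, where it recognises damaged DNA and RAD23B stabilises XPC. In embryonic stem cells the same complex is also known as a coactivator that works with OCT4 and SOX2, the transcription factors that hold the pluripotent state together with NANOG.

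The RAD23B libraries held 109.3 M and 62.53 M reads as implied by the deposited RPM, and the IgG libraries implied by the authors' scaled folds held 104.3 M and 62.55 M. The column headings of the replicate 2 list name replicate 1 libraries, so its IgG library is known only as the control of that list. In the RNA libraries all 10 embryonic stem cell markers examined were present in wild type, between 44.6 and 2040 RPKM (reads per kb of gene, scaled to the depth of the library), against summed levels of 4.04 RPKM for 6 primitive endoderm markers and 3.17 RPKM for 5 trophectoderm markers. The trophectoderm gene list used further on holds these 5 and also Krt19 and Tfap2c, at 15.2 and 59.2 RPKM in wild type. The 8 fibroblast markers summed to 191 RPKM, of which Vim alone gave 189 RPKM, with Lum and Postn at 0 and none of the other 5 above 0.759 RPKM. Rad23b was listed at 229 RPKM in wild type and at 43.9, 35.8 and 52.5 RPKM in the Rad23b-/-, KD1 and KD2 libraries. Xpc was listed at 8.73, 8.34, 0.915 and 0.895 RPKM in the same order. None of the strongest regions lay in either gene or within 5 kb of it.

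The miR-106a cluster is a group of microRNA genes, some of which share the seed of the miR-17 family. Of the 10 regions with the highest ratio in replicate 1, the fourth, chrX:50099950-50100559 (mm9), lay beside this cluster. It held 221 RAD23B against 20 IgG reads in replicate 1 and 111 against 8 in replicate 2. A neighbouring member, chrX:50099195-50099564, held 99 against 15 and 44 against 8 reads. The 6 microRNA genes listed there lay between 1.06 and 4.25 kb from it. The mature sequences that these genes are known for (RefSeq, GRCm38 table; all 6 genes matched by name) are shown because they fall into shared seed groups; capitals mark the seed, bases 2 to 8.

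mmu-miR-106a-5p: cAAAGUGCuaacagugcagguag
mmu-miR-20b-5p: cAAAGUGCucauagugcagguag
mmu-miR-18b-5p: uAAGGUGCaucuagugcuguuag
mmu-miR-19b-3p: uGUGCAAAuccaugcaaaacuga
mmu-miR-92a-3p: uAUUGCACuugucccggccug
mmu-miR-363-3p: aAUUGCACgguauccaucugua

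The first pair shares the seed AAAGUGC and the last pair the seed AUUGCAC. Poly-A libraries do not measure mature microRNAs, and the listed values of these short genes jumped between libraries. Mir363 was listed at 110 RPKM in wild type and at 42.5, 0 and 43.3 RPKM in the mutants, and Mir18b at 0 RPKM in wild type and 66.8, 34.2 and 101 RPKM in the mutants. Values of genes this short are therefore not described as changes one by one, though they enter the counts over nearest genes given further on.

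Few of the strongest regions covered the start of a gene. Among protein-coding genes with coordinates of their own in the expression table, 26 had their start inside one, and 21 of these had a wild-type RPKM of at least 1. The RefSeq table (GRCm38.p6) held exactly 1 promoter for 17 of the 26 genes, from 250 bases before to 50 bases after the start. The promoters of 5 of them are printed for the reader to see the sequence at such starts. Phc1, Uba2 and Ap1s1 had the highest ratios among the expressed genes with 1 promoter apart from Mup6, while Tdgf1 and Trim71 belong to the pluripotency genes described further on. Capitals mark the GC box, GGGCGG or its reverse complement CCGCCC. The regions are in mm9 coordinates, so no region is placed on these letters.

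Phc1 promoter, chr6:122340178-122340477, minus strand: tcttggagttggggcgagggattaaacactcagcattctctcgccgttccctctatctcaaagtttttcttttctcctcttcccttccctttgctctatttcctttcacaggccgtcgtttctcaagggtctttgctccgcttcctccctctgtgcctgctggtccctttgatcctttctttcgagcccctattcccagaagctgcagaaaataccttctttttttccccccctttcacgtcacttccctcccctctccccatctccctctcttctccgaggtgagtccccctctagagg
Uba2 promoter, chr7:34168480-34168779, minus strand: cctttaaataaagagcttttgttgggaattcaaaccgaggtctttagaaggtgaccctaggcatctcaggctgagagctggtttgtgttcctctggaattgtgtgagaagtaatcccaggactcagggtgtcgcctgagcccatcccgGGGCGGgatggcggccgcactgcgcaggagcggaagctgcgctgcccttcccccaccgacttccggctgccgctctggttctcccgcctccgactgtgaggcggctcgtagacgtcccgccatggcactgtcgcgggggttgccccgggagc
Ap1s1 promoter, chr5:137046059-137046358, minus strand: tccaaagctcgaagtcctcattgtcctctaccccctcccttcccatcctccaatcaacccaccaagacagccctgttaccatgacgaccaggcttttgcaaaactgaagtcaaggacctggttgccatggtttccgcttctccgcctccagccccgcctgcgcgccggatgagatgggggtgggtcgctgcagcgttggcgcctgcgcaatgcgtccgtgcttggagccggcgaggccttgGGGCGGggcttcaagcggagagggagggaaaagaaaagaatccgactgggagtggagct
Tdgf1 promoter, chr9:110946109-110946408, minus strand: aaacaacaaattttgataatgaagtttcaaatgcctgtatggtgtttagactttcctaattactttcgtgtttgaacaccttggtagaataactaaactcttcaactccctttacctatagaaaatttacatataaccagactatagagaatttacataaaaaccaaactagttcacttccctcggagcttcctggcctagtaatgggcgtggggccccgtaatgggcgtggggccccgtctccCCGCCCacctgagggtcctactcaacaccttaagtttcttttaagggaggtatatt
Trim71 promoter, chr9:114564320-114564619, minus strand: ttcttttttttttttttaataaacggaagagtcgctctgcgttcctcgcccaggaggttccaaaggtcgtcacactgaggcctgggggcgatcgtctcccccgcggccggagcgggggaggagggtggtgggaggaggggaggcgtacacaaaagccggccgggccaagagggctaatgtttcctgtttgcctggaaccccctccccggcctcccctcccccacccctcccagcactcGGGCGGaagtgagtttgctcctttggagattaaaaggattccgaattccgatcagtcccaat

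A GC box stood in 10 of the 17 promoters (58.8%), against 35.7% of all 32851 promoters of the table and 71.4% of the 3323 promoters whose genes had their start in another shared region. None of the 17 held the octamer ATGCAAAT, the SOX element AACAATG, the ESRRB element TCAAGGTCA, the KLF element GGGTGTGG, the E-box CACGTG or the NRF1 element on either strand. These letters occur in 1.74%, 3.78%, 0.423%, 3.56%, 7.15% and 0.971% of all promoters of the table. In the 3323 promoters with a start in another shared region it was 1.41%, 1.69%, 0.211%, 4.27%, 11.6% and 2.44%. With shares this low, 17 promoters can easily hold none, so nothing is concluded from the absence. The cAMP response element TGACGTCA was in 1 of the 17, that of Hlf, against 1.79% of all and 3.61% of the 3323 promoters. None of the motifs searched contains another, and a match or its absence describes these 300 bases only.

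At Phc1, which encodes a subunit of Polycomb repressive complex 1, the region chr6:122290279-122291595 covered the start with 813 reads for RAD23B and 123 for IgG in replicate 1, then 410 and 65 in replicate 2. At Uba2, a subunit of the SUMO-activating enzyme, chr7:34954312-34955023 held 582 and 89 reads and then 240 and 41. At Ap1s1, a clathrin adaptor subunit, chr5:137521230-137522673 held 1346 and 241 reads and then 581 and 85. The ratios of these 3 regions were 6.56, 6.48 and 5.57 in replicate 1 and 6.23, 5.74 and 6.77 in replicate 2. All 3 genes were expressed in wild type, at 154, 386 and 51.6 RPKM, and none differed 2-fold in any mutant. At Mup6, whose region had a ratio of 6.22 and 5.55, wild-type RPKM was 14.5.

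The replicate 2 ratio was not used to choose the regions. It is a separate measure only in part, since each member had to overlap a region of the replicate 2 list. That list held only regions with a highest pile-up of at least 40 reads. The 471 regions without a partner there are left out of the shares below. Of the 2331 strongest regions, 1772 (76.0%, exact 95% binomial interval 74.2 to 77.7) had a ratio of at least 4 in replicate 2 as well. Over all shared regions the share was 7.37%, and among the other shared regions it was 2.98% (1089 of 36491, 2.81 to 3.16). A replicate 2 ratio of at least 3 was reached by 98.4% of the strongest and 14.5% of the other shared regions. Such intervals cover counting error over regions only, neighbouring regions share their libraries, and no test was made, since regions are not replicates.

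The median ratio was 4.61 in replicate 1 and 4.60 in replicate 2 for the strongest regions, against 2 and 2.07 for the others. In replicate 2 the middle 90% of the strongest regions lay between 3.32 and 7.50, and the whole range ran from 1.96 to 25.5. Replicate 2 was higher in 1012 regions, lower in 1316 and equal in 3. The median log2 difference, replicate 2 minus replicate 1, was -0.04 with an SD of 0.29 over regions. For the other shared regions it was 0.04 with an SD of 0.24. The ratios are of reads not scaled to library depth. Their median over the authors' scaled fold was 1.05 in the replicate 1 list and 1.00 in the replicate 2 list. The part of depth in these small differences between replicates was not tested. Across regions Pearson's r of the log2 ratios was 0.87 over all 38822 shared regions and 0.61 over the 2331 strongest, as a description, since regions share libraries, depth and base composition.

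**Figure D1:**
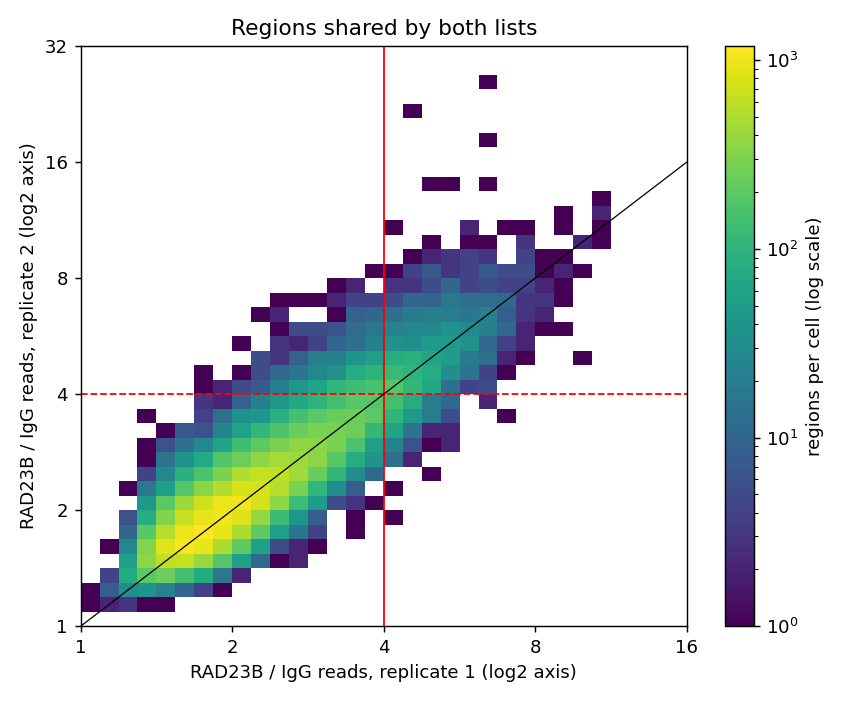
RAD23B over IgG reads (1 read added to each) in replicate 1 (x axis) and replicate 2 (y axis) for the 38822 regions shared by both lists, both axes on a log2 scale, with colour for the number of regions per cell. The solid red line is the ratio of 4 that chose the members, right of which 76.0% of regions lie above the dashed line at the same ratio in replicate 2.

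The share at or above 4 in replicate 2 climbed with the ratio in replicate 1 and did not jump at the threshold. Just below it, at 3.5 to 4, 32.6% of 1599 regions reached 4 in replicate 2, with a median of 3.68. At 4 to 4.5 it was 59.0% of 1013 regions, with a median of 4.13. At 5 to 6 it was 93.4% of 531 regions, and of the 27 regions at 8 or more all 27 reached it, with a median of 8.20.

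The 5 members closest above the threshold all had a ratio of 4.00 and had ratios of 3.23, 4.20, 7.56, 3.62 and 2.89 in replicate 2. The 5 shared regions closest below it had 3.99 to 4.00 in replicate 1 and 3.81, 3.74, 4.18, 3.71 and 3.98 in replicate 2. The 2 sets overlap in replicate 2. Seen from the other list, 2980 of 42364 replicate 2 regions had a ratio of at least 4, and 1799 of these (60.4%) overlapped a strongest region, 1168 (39.2%) overlapped a replicate 1 region under 4 and 13 overlapped none.

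The strongest regions differed from the others more in their IgG reads than in their RAD23B reads, as the rule makes likely. Median RAD23B reads per kb of region were 373 against 282, a higher level in the strongest regions. Median IgG reads per kb were 77.3 against 144. Median widths were 636 and 594 bp. A region entered the replicate 1 list only with a highest pile-up of at least 61 reads.

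Among the strongest regions the highest replicate 1 ratio was that of chr3:3666704-3667208, with 183 reads for RAD23B and 16 for IgG in replicate 1, then 109 and 8 in replicate 2. Its ratios were 10.8 and 12.2. The nearest protein-coding start, that of the nuclear receptor gene Hnf4g, was 159 kb away, and Hnf4g was listed at 0.0654 RPKM in wild type. The second, chr1:53806615-53807308, held 426 and 39 reads and then 215 and 20, for ratios of 10.7 and 10.3. It lay 5.04 kb outside the locus of Stk17b, a kinase gene at 16.7 RPKM. The third, chr14:83408326-83408827, held 127 and 11 reads and then 75 and 6. It was 1435 kb from the nearest protein-coding start, that of the protocadherin gene Pcdh17 at 0.0312 RPKM.

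Of these 10 highest regions 4 were on the X chromosome, 1 lay in a listed locus, that of the mitochondrial complex III assembly gene Ttc19 (139 and 13 reads, then 81 and 9), and none held a gene start. The lowest replicate 2 ratio among the 10 was 4.78, nearest to Pja1, and the other 9 lay between 7.50 and 12.4. The 2 genes at 0 RPKM beside them were the olfactory receptor gene Olfr901 and A530053G22Rik.

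The highest ratios in replicate 2 rested on very few IgG reads. The region nearest to Il1rapl1, chrX:85827994-85828380, had 103 reads for RAD23B and 15 for IgG in replicate 1, then 50 and 1 in replicate 2, for ratios of 6.50 and 25.5. The exact 95% counting interval of 50 reads over 1 runs from 8.57 to 2014. The region nearest to Dhx35 held 107 and 22 reads and then 44 and 1. Only 3 of the 10 highest in replicate 2 are also among the 10 highest in replicate 1, those nearest to Hnf4g, Ccdc160 and Olfr901.

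The members with the most RAD23B reads were of another kind, with ratios of 4.32 to 6.61 and much IgG. The most reads, 2823 against 652 in IgG, stood in a region of 734 bp inside Kctd16 where 2770 extended reads covered 1 position, a sharp stack, and its replicate 2 ratio was 3.75. A region of 2420 bp, chr16:13748170-13750590, held 1732 and 261 reads and then 830 and 123, 10.5 kb from the start of the phospholipase gene Pla2g10. The fourth by reads was the region just upstream of Pou5f1, and others were nearest to the glucose transporter gene Slc2a1 (1858 and 427 reads) and inside the phosphodiesterase gene Pde1b (1641 and 355 reads).

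The strongest regions lay away from gene starts. A listed gene start lay inside 49 of them (2.10%) and within 1 kb of 112 (4.80%, 3.97 to 5.75), against 29.7% (29.2 to 30.1) of the other shared regions. Over 5 kb from any listed locus lay 48.3% (46.3 to 50.4), against 23.0%. Inside a locus lay 40.5%, against 65.8%. The median distance to the nearest start was 26.8 kb, against 7.59 kb, and to the nearest protein-coding start 41.6 kb, against 10.5 kb. The 471 regions of the same ratio found in replicate 1 alone were placed like the members, with 4.25% within 1 kb of a start.

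**Figure D2:**
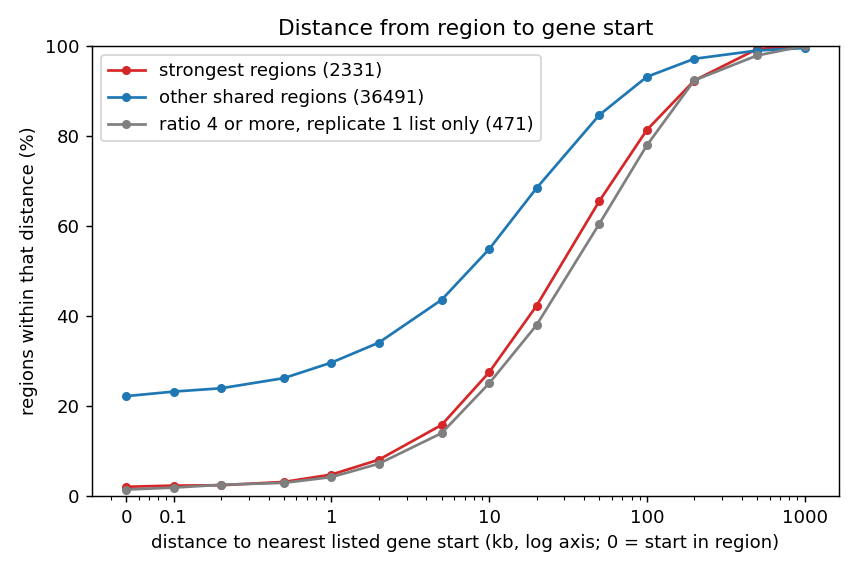
Share of regions (y axis, %) whose nearest listed gene start lies within a given distance (x axis, kb, log scale, 0 standing for a start inside the region). The curve of the 2331 strongest regions runs far below that of the 36491 other shared regions near starts, with 4.80% against 29.7% at 1 kb, and close to that of the 471 regions of replicate 1 alone.

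IgG reads moved with this placement. Shared regions within 1 kb of a start had a median of 163 IgG and 305 RAD23B reads per kb, and 1.02% of them were among the strongest. Shared regions over 5 kb from any locus had 123 IgG and 275 RAD23B reads per kb, and 11.8% were among the strongest. When the same number of shared regions was taken by RAD23B reads per kb, 26.0% lay within 1 kb of a start, and by RAD23B minus IgG reads per kb 13.3% did. By the ratio in replicate 2 the share was 4.85%. By RAD23B reads not divided by width it was 40.6%. The share near starts thus varied with the measure that chose the regions. By RAD23B minus IgG reads per kb it was still below the 29.7% of the other shared regions. The part of IgG coverage in these shares was not tested.

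Chromosomes differed in the same way. On the X chromosome 122 of 354 shared regions (34.5%, 29.5 to 39.7) were among the strongest, against 2209 of 38467 (5.74%, 5.51 to 5.98) on the autosomes. Chromosome 8 had the lowest autosomal share, 2.13%, followed by 15 with 2.71% and 11 with 3.40%, and chromosome 14 the highest, 9.22%. Median IgG reads per kb of shared regions were 82.5 on X and 141 on the autosomes in replicate 1, and 36.9 and 63.2 in the replicate 2 list. On chromosomes 8, 15 and 11 they were 168, 163 and 149 in replicate 1. RAD23B reads per kb were 260 on X and 285 on the autosomes, much closer. The part of IgG coverage, or of the number of copies of each chromosome, in these shares was not tested. In replicate 2 the members on X had a ratio of at least 4 in 86.9% (79.6 to 92.3) and a median of 5.24, against 75.4% (73.6 to 77.2) and 4.56 for members on autosomes.

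**Figure D3:**
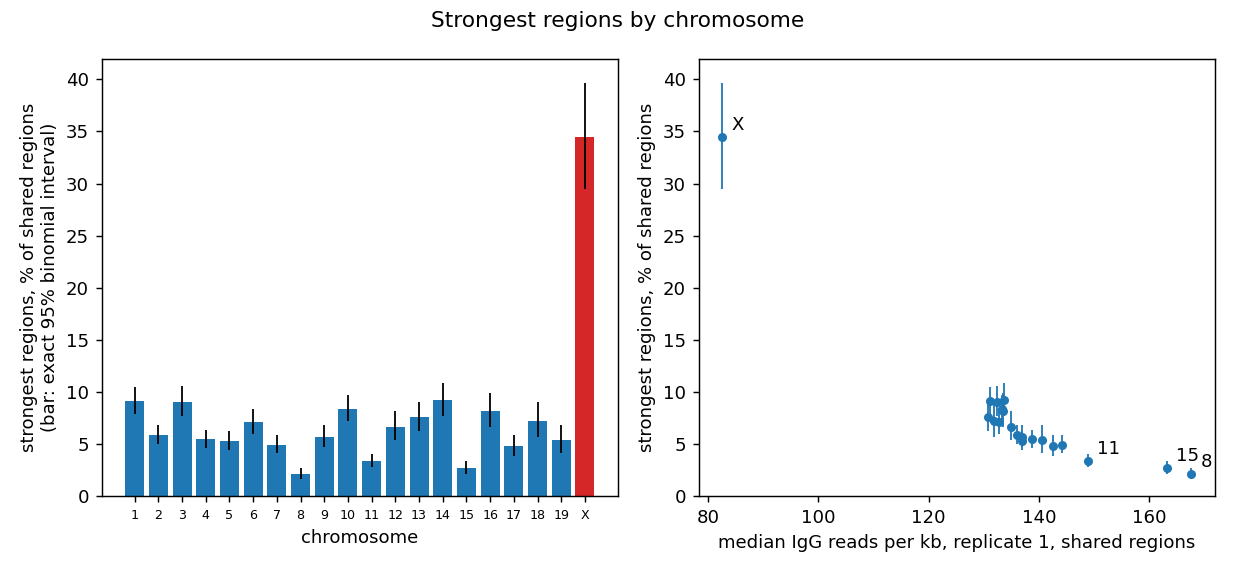
Strongest regions as a share of all shared regions of each chromosome (y axes, %; error bars are exact 95% binomial intervals), by chromosome on the left and against the median IgG reads per kb of its shared regions in replicate 1 on the right. X stands apart at 34.5% and 82.5 IgG reads per kb, and chromosomes 8, 15 and 11, with the most IgG, have the lowest shares.

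Most strongest regions stood alone. With regions joined when at most 12.5 kb apart, 1981 were single and 350 fell into 162 chains, of which 23 held 3 or more members and 3 held 4. The chain of 4 beside the microRNA cluster on X spanned 13.7 kb and had 632 reads for RAD23B and 87 for IgG in replicate 1, then 278 and 36 in replicate 2. The chain at Tet1, which encodes an enzyme that oxidises methylated cytosine, spanned 6.36 kb inside a listed locus on shared coordinates, with 1982 and 449 reads and then 942 and 201. The chain at Trim71, an RNA-binding ubiquitin ligase of early development, spanned 20.6 kb from upstream of the start into the gene, with 1838 and 405 reads and then 797 and 188. Members of the Tet1 and Trim71 chains had replicate 2 ratios of 3.81 to 5.57.

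Some chains of 3 stood nearest to further pluripotency genes, and others to genes of many kinds. The 3 regions nearest to Prdm14, a regulator of the naive state, stood 31.8 to 52.0 kb from its start on the downstream side, with replicate 1 ratios of 6.50, 4.86 and 7.30 and replicate 2 ratios of 7, 5.26 and 5.38. The 3 nearest to Sox2 spanned 16.8 kb, with 289, 532 and 1313 RAD23B against 49, 88 and 293 IgG reads in replicate 1. The table gives Sox2 a shared locus of 578 kb, so no distance to its own start is given. Chains of 3 also stood 164 to 165 kb upstream of Klf6, 35.4 to 44.9 kb downstream of Spry2 and around Pim1 and Dppa5a. The remaining chains of 3 were nearest to Agps, Glod5, Gm17624, Gm5089, Hace1, Macf1, Olfr90 and Serpini1. Further ones were nearest to Smarcad1, Tmem220, Trp63, Tsga8, Vrk1 and AU018091 with Nlrp12. All 23 chains were found by the same rule, and none had a member below a replicate 2 ratio of 2.95.

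Regions were next set beside gene lists. Background counts were 5.64% of all 36586 genes, 6.98% of the genes with a wild-type RPKM of at least 1 and 4.94% of those that also have coordinates of their own with a strongest region in the locus or within 5 kb. Among lists of genes examined, core pluripotency genes had one at 3 of 3, OCT4 and SOX2 targets with the Dppa genes at 13 of 18 and further genes of the naive state at 6 of 15. Nodal signalling had 2 of 8, Polycomb and chromatin genes 3 of 10, Wnt 2 of 6, LIF and STAT3 signalling 1 of 8, and FGF and ERK signalling 1 of 8. The BMP and Id genes (8), XPC and its partners (9), p53 targets (9), microRNA hosts with cell cycle genes (6), 2-cell genes (6) and primitive endoderm genes (6) had none. Germline genes had 1 of 7, trophectoderm 1 of 7 and neural ectoderm 2 of 7. These counts include genes on shared coordinates. Of list genes with coordinates of their own, 2 core, 3 naive and 10 target genes had one. So did 2 of Nodal, 2 of Polycomb and chromatin and 1 each of FGF and ERK, trophectoderm and neural ectoderm. The LIF and STAT3, Wnt and germline lists then had none. Lists with genes on shared coordinates hold fewer such genes than the numbers above. The counts for own coordinates are therefore not shares of those numbers, and no share was taken to set beside the 4.94%. A wider locus meets more regions by its length, and the lists were chosen with results of these data known, so these counts are descriptions.

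The lists without one of the strongest regions did not lack RAD23B regions altogether. All 8 BMP and Id genes, all 9 p53 targets and 8 of 9 XPC partners had a shared region below the ratio of 4 in the locus or within 5 kb. A shared region of any ratio was found there at 57.5% of all genes, at 83.5% of those with a wild-type RPKM of at least 1 and at 77% of those that also have own coordinates, so these counts are close to those of expressed genes as a whole. None of the 2-cell genes had any.

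Pou5f1, which encodes OCT4, had its member 0.428 kb upstream of the start at chr17:35640617-35642553. It had 1645 reads for RAD23B and 313 for IgG in replicate 1, then 769 and 146 in replicate 2, and the ratio was 5.24 in both. The counting interval of the read ratio was 4.65 to 5.95 in replicate 1 and 4.41 to 6.33 in replicate 2, so the replicates could not be told apart there. Nanog had its member 3.98 kb upstream at chr6:122652186-122653530, with 877 and 201 reads and then 402 and 91, for ratios of 4.35 and 4.38. Sox2 had 3 within its shared locus and 5 kb around it, the strongest at chr3:34545016-34545626 with 313 and 60 reads and then 166 and 32.

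Among naive-state genes Esrrb, an orphan nuclear receptor, had the most, 3 members, with the highest at chr12:87842359-87843414, 140 kb into the 161 kb locus. It held 991 and 168 reads and then 492 and 70, for ratios of 5.87 and 6.94. Nr5a2, a nuclear receptor that binds at Pou5f1, had ratios of 5.81 and 4.5, 6.11 kb into the gene. Klf2 had 4.17 and 3.85, 2.20 kb upstream of its start. Tfcp2l1, Tbx3 and Fbxo15 had 4.52, 4.45 and 4.80 in replicate 1 and 3.70, 4.22 and 4.35 in replicate 2. Klf2 and Tfcp2l1 thus stayed below 4 in replicate 2, while Esrrb, Nr5a2, Tbx3 and Fbxo15 did not.

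Of the 13 OCT4 and SOX2 target genes with a member in the locus or within 5 kb, 3 had the highest-ratio member on the start itself (Phc1, Tdgf1 and Rif1). Tdgf1, a co-receptor of Nodal, had 1469 and 315 reads and then 702 and 165 in chr9:110848419-110851039, and Rif1, a telomere and replication timing factor, 1215 and 266 and then 547 and 127. The highest-ratio members of Spp1, L1td1, Gdf3, Upp1 and Utf1 lay 0.279 to 1.59 kb from the start, a distance that the 5 kb limit and the short loci hold down. Spp1, which encodes osteopontin, had ratios of 5.41 and 6.16 from 551 and 101 reads and then 270 and 43. L1td1, an RNA-binding protein of the pluripotent state, had 5.73 and 6.14. Dppa5a, at 2040 RPKM the most highly expressed of the lists, had 2 members with the higher at 4.64 and 4.77. Jarid2, a cofactor of Polycomb repressive complex 2, had the weakest at 4.00 and 3.38 from 179 and 44 reads and then 80 and 23.

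**Figure D4:**
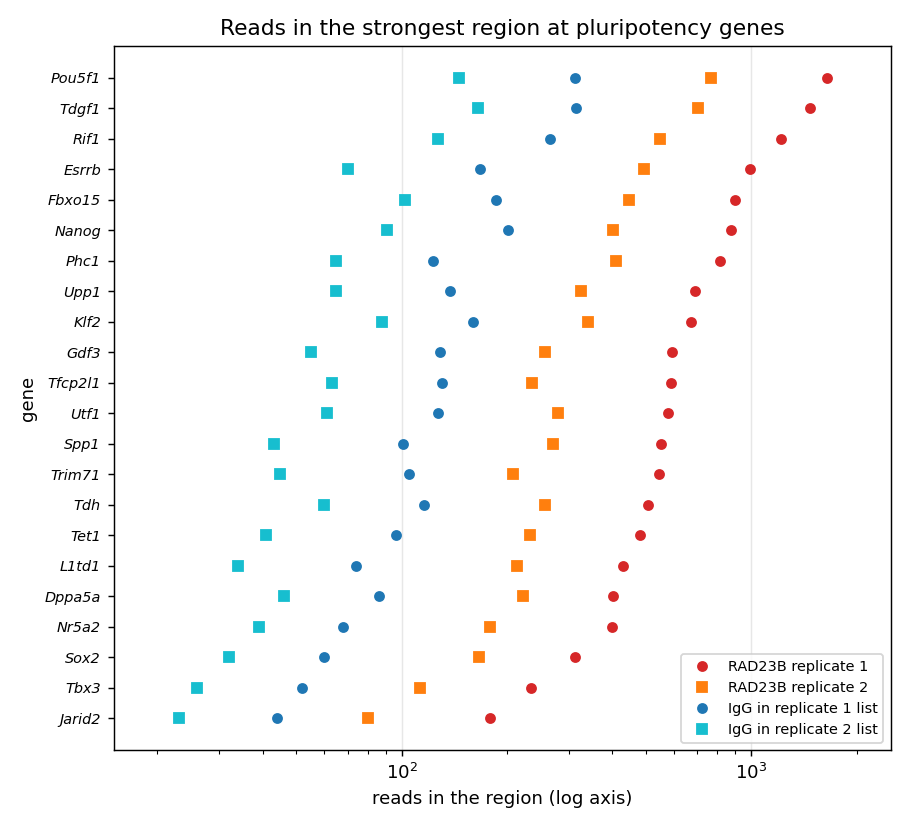
Reads in the highest-ratio strongest region at each of the 22 genes of the core, naive and OCT4 and SOX2 target lists that have one (x axis, reads in the region, log scale; one gene per line). RAD23B reads are red (replicate 1) and orange (replicate 2) and IgG reads of the same list blue and light blue; the rule sets the gap in replicate 1, and the reads there run from 179 against 44 reads at Jarid2 to 1645 against 313 at Pou5f1.

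The Nodal pathway, which signals through a ligand held in check by the Lefty inhibitors, had a member 0.860 kb upstream of Nodal (995 and 218 reads, then 445 and 101) and one 3.36 kb upstream of the inhibitor gene Lefty2 (1307 and 315, then 600 and 135). The chromatin genes with a member were the demethylase gene Kdm5b (6.53 and 4.23), the cytosine oxidase gene Tet2 (4.94 and 4.61) and the methylation cofactor gene Dnmt3l (5.89 and 4.06). Spry2, an inhibitor of receptor kinase signalling, had 2 members, the higher 0.075 kb upstream of its start at 4.67 and 3.53. The trophectoderm factor Tfap2c had one at 4.5 and 3.97, and the neural factors Otx2 and Pax6 had theirs at 4.29 and 5.42 and at 5.75 and 5.19.

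A further 16 list genes with no member within 5 kb were the nearest protein-coding gene of one farther away, which was examined after the counts were known. They were 5 of the naive list, 3 of Nodal signalling, 2 each of the LIF, Wnt and cell cycle lists and 1 each of the FGF and Polycomb lists. The strongest regions had 1819 distinct nearest protein-coding genes in all, so this count is a description. Klf5 was nearest to 5 of the regions, and Klf4, Il6st, Smad7 and Myc to 2 each. Apart from Prdm14, only the region closest to the start of each gene is described. Klf4 and Klf5, factors of the naive state, had the closest 56.5 kb and 25.7 kb downstream of the start. These had replicate 1 ratios of 6.71 and 4.12 and replicate 2 ratios of 5.57 and 2.68. Zfp42, a stem cell marker gene also known as Rex1, had one 13.4 kb upstream with 904 and 136 reads and then 418 and 67, for ratios of 6.61 and 6.16. Lifr and Il6st, the receptor subunits for LIF, had one 12.2 and 11.99 kb upstream, and Lefty1 one 9.44 kb upstream. The cell cycle genes Myc and Wee1 had theirs 25.2 and 43.7 kb downstream, with replicate 1 ratios of 4.14 and 4.47 and replicate 2 ratios of 3.72 and 4.23. Prdm14 was given with its chain, and the other 7 were Mycn, Smad7, Skil, Spry4, Lef1, Sp5 and Eed, between 5.81 and 196 kb away, with replicate 1 ratios of 4.05 to 5.50.

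Expression at the nearest genes was mixed. The 2331 regions had 1953 distinct nearest genes, of which 960 (49.2%, 46.9 to 51.4) had a wild-type RPKM of at least 1. Among genes nearest only to other shared regions it was 60.4% of 14680, and among all listed genes 38.2% of 36586. Counted over regions, the nearest protein-coding gene had an RPKM of at least 1 for 65.9% of the strongest and 74.1% of the other shared regions, and was listed at 0 for 12.4% and 5.62%. An RPKM of at least 50 was reached by 14.8% and 16.7%. The highest wild-type levels among protein-coding genes with own coordinates and a strongest region within 5 kb were those of Dppa5a (2040 RPKM), Pou5f1 (1603), the RNA-binding protein gene Hnrnpa3 (1249), Tdgf1 (1087), the uridine phosphorylase gene Upp1 (684) and Nanog (512).

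With 1 RNA library per group there is no replicate error, and no test was possible, so a change here is the mutant over the wild-type value of RPKM + 1 on the log2 scale, which understates the change of low genes. Only genes that reached 1 RPKM in one of the libraries compared entered, and those at least 2-fold apart were counted. The 3 mutants share the wild-type library. In Rad23b-/- cells 66 of 1004 nearest genes of the strongest regions (6.57%) were lower and 31 (3.09%) higher, against 4.61% lower and 4.74% higher over all genes. In KD1 it was 46 (4.58%) lower and 37 (3.68%) higher of 1005, against 3.4% and 3.95%. In KD2 it was 51 (5.09%) lower and 29 (2.89%) higher of 1002, against 3.6% and 3.93%. These nearest genes include short RNAs. With the nearest protein-coding gene instead, chosen after seeing the data, 70 were lower and 25 higher of 1215 in Rad23b-/-, 43 and 27 of 1212 in KD1, and 51 and 24 of 1213 in KD2. These counts include genes on shared coordinates, and no share over all protein-coding genes was taken for them. They also do not allow for the shift of all genes given next. Over protein-coding genes with own coordinates, 3.44% were lower and 3.25% higher in Rad23b-/-. It was 2.5% and 2.56% in KD1, and 2.37% and 2.49% in KD2.

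The median of all genes was itself below 0 in each mutant, at -0.16, -0.14 and -0.14 on the log2 scale. With changes taken relative to it, the counts of nearest genes of any type were 41 lower and 42 higher in Rad23b-/-, 32 and 52 in KD1, and 37 and 47 in KD2. After centring, lower nearest genes no longer outnumbered higher ones in any mutant. On the same centred scale 3.07% of all genes were lower and 6.20% higher in Rad23b-/-, against 4.08% and 4.18% of the nearest genes. In KD1 it was 2.5% and 5.06% of all genes, against 3.18% and 5.17% of the nearest genes. In KD2 it was 2.66% and 5.12%, against 3.69% and 4.69%. The lower share of the nearest genes thus stayed above that of all genes in each mutant. Their higher share was below that of all genes in Rad23b-/- and KD2 but not in KD1. Genes nearest only to other shared regions were 2.03% lower and 4.59% higher in Rad23b-/- on this scale. It was 1.57% and 3.27% in KD1, and 1.57% and 3.59% in KD2. Against these, the nearest genes of the strongest regions had the larger lower share in each mutant. Their higher share was smaller in Rad23b-/- but larger in KD1 and KD2.

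Among protein-coding genes with coordinates of their own, 515 had a strongest region in the locus or within 5 kb. In Rad23b-/- 33 of 395 (8.35%) were lower and 4 (1.01%) higher, where all such genes gave 3.44% and 3.25%. In KD1 it was 18 (4.56%) and 8 (2.03%) of 395, against 2.5% and 2.56%. In KD2 it was 24 (6.03%) and 5 (1.26%) of 398, against 2.37% and 2.49%. On the centred scale 22 (5.57%) were lower and 9 (2.28%) higher in Rad23b-/-, against 1.98% and 4.72%. In KD1 the direction turned, with 10 (2.53%) lower and 13 (3.29%) higher, against 1.59% and 3.40%, and in KD2 it was 17 (4.27%) and 11 (2.76%), against 1.43% and 3.74%. Median wild-type RPKM was 8.22 for these genes and 7.44 for the 8013 with other shared regions only, and median locus length 44.3 and 17.5 kb. On the centred scale, those with other shared regions only were 1.72% lower and 4.17% higher in Rad23b-/-. It was 1.46% and 2.78% in KD1, and 1.26% and 3.27% in KD2. The part of locus length in these counts was not tested.

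Markers of other cell types differed between the same libraries. Summed primitive endoderm markers were 4.04 RPKM in wild type and 7.52, 6.95 and 6.63 RPKM in Rad23b-/-, KD1 and KD2, with none of the 6 at 0 in any library. Of these, Gata4 was listed at 1.26, 3.02, 2.70 and 2.67 RPKM and Sox7 at 1.15, 2.76, 2.88 and 2.38 RPKM. Gata6 was not higher in any mutant, at 0.961, 0.933, 0.709 and 0.866 RPKM. Sox17, Foxa2 and Pdgfra stayed at or below 0.474 RPKM in every library. The 5 trophectoderm markers summed to 3.17, 9.37, 10.3 and 5.53 RPKM in the same order, also with none at 0. Krt19, an epithelial keratin, was listed at 15.2, 78.7, 69.5 and 62.7 RPKM. Tfap2c, of the same gene list, went the other way, at 59.2, 22.4, 30.3 and 22.7 RPKM. The fibroblast sum was 191, 88.7, 100.3 and 125.1 RPKM, with Vim at 189, 86.3, 98.5 and 123 RPKM. The part of these differences in the counts was not tested.

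The genes of this set that were lower in all 3 mutants numbered 16 of 392 (4.08%), against 1.48% of all protein-coding genes with own coordinates, and 2 were higher in all 3, Porcn and Cd80, against 1.6%. The 16 were Alpl, Anxa6, Esrrb, Fggy, Fut9, Gjc1, Gli2, Ldhb, Mov10, Nanog, Oas1a, Pdcl2, Rasgrp1, Sgk1, Trh and Zyg11a, a list taken after the values were seen. On the centred scale 8 of them (2.04% of the 392) kept the 2-fold difference in all 3 mutants, against 0.882% of all such genes: Alpl, Anxa6, Gjc1, Ldhb, Oas1a, Pdcl2, Trh and Zyg11a. On that scale 4 (1.02%) were higher in all 3, against 2.14%.

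Trh, which encodes thyrotropin-releasing hormone, was listed at 242 RPKM in wild type and at 27.6, 25.9 and 67.9 RPKM in Rad23b-/-, KD1 and KD2. Nanog was listed at 512 RPKM and at 197, 243 and 209 RPKM. Esrrb was listed at 162 RPKM and at 51.5, 77.0 and 60.2 RPKM. The log2 changes of Nanog were -1.37, -1.04 and -1.26, and those of Esrrb -1.63, -1.02 and -1.39. Alpl, the alkaline phosphatase long used to stain stem cell colonies, was listed at 72.4 RPKM and at 23.5, 26.9 and 24.6 RPKM. Fut9, the fucosyltransferase that makes the SSEA-1 epitope, was listed at 25.3 RPKM and at 8.56, 10.9 and 11.6 RPKM. Ldhb, a lactate dehydrogenase subunit, was listed at 271 RPKM and at 111, 113 and 111 RPKM. These 6 come from the 16 genes chosen for being lower in all 3 mutants.

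Other genes with a strongest region differed less, or were higher in the mutants. Pou5f1 was listed at 1603 RPKM in wild type and at 1152, 1468 and 1431 RPKM in the mutants, less than 2-fold apart throughout. Tdgf1 was listed at 1087, 1151, 1593 and 1304 RPKM, and Phc1 at 154, 196, 177 and 186 RPKM. Porcn, which modifies Wnt ligands for secretion, was listed at 22.7 RPKM and at 57.3, 51.8 and 58.6 RPKM.

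Genes on shared coordinates are uncertain, since the value may belong to a merged locus. Tdh, threonine dehydrogenase, was listed there at 437 RPKM and at 60.6, 110 and 68.9 RPKM. Tfcp2l1 was listed at 177 RPKM and at 44.7, 62.0 and 60.8 RPKM. Tbx3 was listed at 40.1 RPKM and at 11.9, 13.9 and 11.1 RPKM, and Dnmt3l at 181 RPKM and at 393, 471 and 449 RPKM. Of the 22 core, naive and target genes with a member, 6 (27.3%) were at least 2-fold lower in Rad23b-/-, and of the 14 without one 4 (28.6%), namely Dppa3, Klf4, Prdm14 and Tcl1. Over all genes the share was 4.61%, so the list genes lay above it both with and without a strongest region. On the centred scale the counts were 5, without Klf2, and 4.

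**Figure D5:**
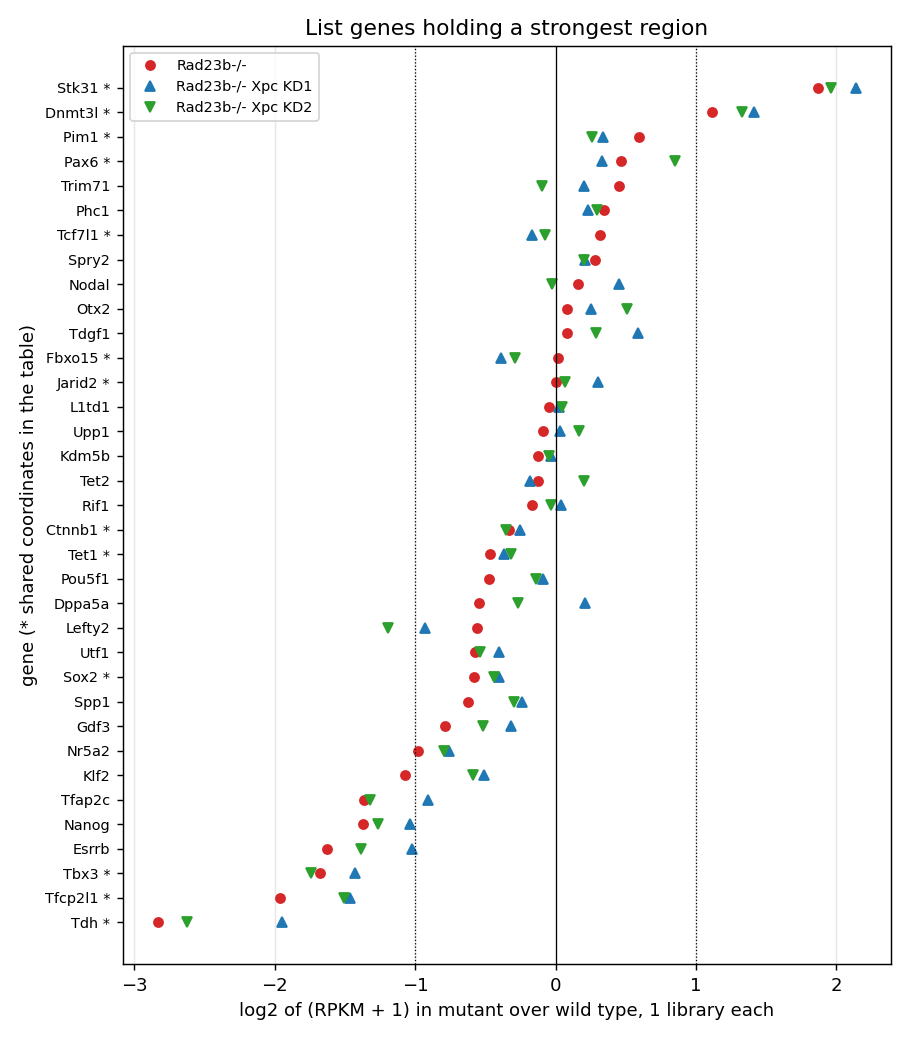
Change in each mutant (x axis, log2 of RPKM + 1 over wild type, 1 library each) for every list gene with a strongest region in its locus or within 5 kb (y axis, sorted by the change in Rad23b-/-; a star marks shared coordinates). Dotted lines mark 2-fold; the genes run from Tdh at -2.83 to Stk31 at 1.87 in Rad23b-/-, with Nanog, Esrrb, Tbx3, Tfcp2l1 and Tdh past -1 in all 3 mutants.

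The named rule for the largest changes mostly returned very short genes. Of 60 places for the 10 largest changes in each direction and mutant, 47 were held by short RNAs and 8 by protein-coding genes. The protein-coding ones were Trh, Tdh and 5730522E02Rik on the lower side, the last listed at 30.6 RPKM in wild type and 0.0380, 0.00795 and 0.0575 RPKM in the mutants on coordinates shared over 608 kb.

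Of the strongest regions, 7 (0.300%) overlapped a region of the Xpc-/- list, against 1.29% of the other shared regions. They were nearest to Ptgfrn, Clic4, Ap1s1, Actl6b, Tom1, Cdyl2 and Trim8. In all 828 regions of that list the column headed RAD23B held fewer reads than the column headed IgG while the authors' fold was at least 1.15, so its read columns were not used and the overlap says nothing of RAD23B in Xpc-/- cells.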

How the data were processed

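The members, gene lists and the rules for naming were chosen with earlier results of these data known. For each RAD23B library the authors deposited 1 list of regions in mm9 coordinates. Partek was used per the submitters' processing notes; for aligner and thresholds, none is given in the sources used here. Per the file headers the lists hold counts of reads per region of the RAD23B and IgG libraries, the highest coverage signal, that maximum in RPM, a scaled fold and p-values; the deposited p-values were not used. The ratio was computed from the deposited counts, 1 read added to each, and replicate 2 reads were summed over all overlapping regions.

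Per the submitters' processing notes, the authors made RPKM values on mm9 with Cuffdiff, Cufflinks 2.0.2 and TopHat2 2.0.6; each deposited table sets 1 mutant beside wild type with a fold ratio and a p-value, neither used here. An RPKM of exactly 1 was read as 0. Of 36658 lines, 72 name no gene. Of 36586 genes, 23501 have coordinates of their own; others share them. Wild-type values printed are those of the Rad23b-/- table.

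Python 3.11.15, numpy 2.4.6, scipy 1.17.1 and pandas 2.3.3 were used; overlap and nearest-gene code was tested on simulated regions. Regions named are the 10 highest ratios in each replicate, the 5 with most reads, 5 on each side of the threshold, and the best member of each list gene. Genes named are their nearest genes, those with most members, the 10 highest RPKM and the 10 largest changes each way. Some list genes are not reported here, and the list counts leave them out. Groups came from the labels. Alternatives changed the threshold, reads added, overlap, IgG minimum, replicate, gene set, pseudocount, filter and centring.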

Additional observations from a re-analysis of the deposited data

How the results depend on the processing

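With a ratio of at least 5 there were 773 regions, of which 95.1% reached 4 in replicate 2 (median 5.53) and 51.2% lay over 5 kb from any locus. With a ratio of at least 3 there were 6593, and the values were 40.2%, 3.73 and 42%, with 7.20% within 1 kb of a start. With 10 reads added in place of 1 there were 1273 regions, 86.1% at or above 4 in replicate 2, a median of 4.96 and 52.4% of nearest genes at an RPKM of at least 1. Asking that replicate 2 cover 50% of the region, or at least 10 IgG reads, left 2307 and 2327 regions and moved none of the shares or the median beyond its interval. Without one RAD23B replicate, the number ranged from 2802 to 2980, the share within 1 kb of a start from 4.71% to 4.97%, the share over 5 kb from a locus from 45.3% to 48.8% and the share of nearest genes with an RPKM of at least 1 from 48.0% to 49.3%.

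Genes with own coordinates only gave 3.65% within 1 kb of a start, 71.3% over 5 kb from any of these loci and 46.4% of nearest genes expressed, as fewer loci were used. Alternatives chosen after seeing the data gave, for the nearest protein-coding gene, 3.39% within 1 kb and 64.8% expressed. The same number of regions chosen by RAD23B reads per kb gave 26.0% within 1 kb and 28.6% over 5 kb from a locus, and by RAD23B minus IgG reads per kb 13.3% and 37.5%. Leaving out the X chromosome, or using the replicate 2 region of largest overlap, moved no share or median beyond its interval.

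With RPKM + 0.1 the higher nearest genes numbered 54, 62 and 62 in Rad23b-/-, KD1 and KD2. Centred on the median of all genes, 41 were lower in Rad23b-/- and 47 higher in KD2. The other alternatives kept these counts within 1.5 times, and the cause of the shifts was not tested. No paired analysis was possible because no result comes from a test across samples; each ratio already sets RAD23B beside the IgG of its own list. Depth limits the ratios where IgG reads are few.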

Other observations

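Several highly expressed genes with a strongest region belong to none of the gene lists, and 3 of them (Sgk1, Anxa6 and Gjc1) were named above without their values. Ifitm2, an interferon-induced membrane protein gene with a strongest region of ratio 4.21, was listed at 411 RPKM in wild type and at 155, 201 and 205 RPKM in the Rad23b-/-, KD1 and KD2 libraries. Sgk1, a serum-induced kinase gene with 2 strongest regions, was listed at 113 RPKM and at 46.9, 46.3 and 54.1 RPKM. Anxa6, an annexin gene, was listed at 108 RPKM and at 30.0, 40.5 and 39.3 RPKM. Gjc1, a connexin gene, was listed at 51.9 RPKM and at 22.2, 19.4 and 16.9 RPKM. Nupl1, a nucleoporin gene, differed in 1 library only, at 115 RPKM in wild type and 133, 114 and 43.5 RPKM in the mutants. These genes were picked after their values were seen, and with 1 library per group no test was possible.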
